A study of Mus musculus with 6 samples.

Results

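Translation factors are the proteins that carry an mRNA through initiation and elongation on the ribosome. Their genes were taken from the deposited table by symbol: all symbols that begin with Eif or Eef and a digit, without the eIF2 kinases (Eif2ak genes), the Y-linked Eif2s3y and pseudogenes. Of 66 symbols matched, 5 were left out by this rule and 61 genes remained, of 15982 genes in all, and no member's symbol was repeated. They comprise 49 genes with Eif symbols and 12 with Eef symbols, and all 61 are protein-coding in GENCODE M21 (mouse build GRCm38).

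The cells were primary mouse bone marrow-derived macrophages from control mice (Ctrl) or from mice with a myeloid-specific knockout of Bub1 (Bub1 cKO), a kinase of the spindle checkpoint. Both groups had 3 days in the macrophage growth factor M-CSF (20 ng/ml), then 2 days in M-CSF (20 ng/ml) plus RANKL (50 ng/ml), the cytokine that starts osteoclast formation. Each genotype has 3 libraries, made from 25 ng of RNA with a kit that reads the 3′ ends of mRNAs. The labels do not say whether these came from separate animals, so p-values measure the spread between libraries, which may be technical. The sources used here do not give the driver of the deletion, the strain or the age.

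All values below come from 1 comparison table made by the authors, with 1 level per gene and genotype and no value per library. Levels are called TPM here (transcripts scaled to a fixed sum) from the sums of the columns. Whether they were divided by transcript length is not known. With a kit that reads 3′ ends, such a division could distort comparisons between genes. Rankings of genes and sums over genes below are therefore of the deposited levels only. Both of the following log2 changes can be read for each gene. The "deposited log2 change" is log2 of (Bub1 cKO + 1)/(Ctrl + 1), which understates the change of low genes. The "test's own log2 change" is the authors' statistic times its standard error, and the 95% intervals below belong to it. A gene passed when the authors' adjusted p, over the whole table, was under 0.05.

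Osteoclast markers were present at high level in both genotypes: per the authors' deposited table, the 10 genes summed to 1987 TPM in Ctrl and to 2298 TPM in Bub1 cKO. Of these, 8 had positive and 2 negative statistics. An unadjusted p under 0.05 was found for 5 of the 10, all higher in Bub1 cKO, and none passed. Such a p was found for 4.81% of all genes and 8.3% of genes averaging at least 10 TPM. The macrophage list summed to 2621 and 1234 TPM, a difference carried by Lyz2 (2141 and 762 TPM per the authors' deposited table). Its 8 genes had 2 positive and 6 negative statistics. At an unadjusted p under 0.05, 3 were lower and 1 was higher in Bub1 cKO. Only Lyz2 passed (adjusted p = 0.00033 per the authors' deposited table). All 5 erythroid markers found had a positive statistic and summed to 19.6 TPM (Ctrl) and 358 TPM (Bub1 cKO), with Alas2 at 0 in Ctrl. Hbb-bs and Hbb-bt passed (adjusted p = 0.00017 and 0.025 per the authors' deposited table). All 9 neutrophil markers found, of which 3 were at 0 in Ctrl, had a positive statistic and summed to 95.7 and 232 TPM. Cxcr2 passed (adjusted p = 0.036 per the authors' deposited table), and 1 of the 9 had a negative deposited log2 change. T and B cell markers stayed under 2 TPM in sum and stromal markers under 3 TPM. The part of these other cells in the results below was not tested, and in bulk RNA fewer cells of a type and less RNA per cell cannot be told apart. Bub1 itself was at 6.73 and 5.32 TPM per the authors' deposited table (adjusted p = 0.985), and since 3′ tags may lie outside the deleted exons, it checks nothing about the genotype.

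In initiation, eIF2 bound to GTP brings the initiator tRNA to the small ribosomal subunit, eIF3 holds that complex together, and eIF4F (the cap-binding protein eIF4E, the scaffold eIF4G and the helicase eIF4A) recruits the mRNA. The subunit then scans to the start codon under the control of eIF1, eIF1A and eIF5, and eIF5B joins the large subunit. In elongation, eEF1A delivers aminoacyl-tRNA, eEF1B recharges it with GTP, and eEF2 moves the ribosome along. Growth signals act on this machinery through mTORC1, which controls the 4E-binding proteins and the translation of mRNAs that begin with a 5′ terminal oligopyrimidine tract (5′ TOP), and stress acts through phosphorylation of eIF2.

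None of the 61 genes passed the authors' adjusted p, against 29 of all 15982 genes (0.181%). The smallest adjusted p among them was 0.767, for Eif3d. An unadjusted p under 0.05 was found for 7, of which 6 had higher values in Bub1 cKO (Eif3d, Eef1e1, Eif3j2, Eif2s1, Eif3a and Eif1a) and 1 had a lower one (Eif2a). That is 11.5% of the members beside 4.81% of all genes, and 9.84% beside 2.35% when only the higher ones are counted. Lower genes made up 2.46% of all. The members are well expressed, and low genes seldom reach a small p: of those averaging at least 10 TPM, 6 of 53 members (11.3%) had such a p, beside 8.3% of all 5159 genes of that level. Of these, 5 members were higher, beside 4.28% of genes of that level, and 1 was lower, beside 4.01%.

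The members together made up 0.860% of the summed expression in Ctrl and 0.889% in Bub1 cKO, with summed levels of 8598 and 8889 TPM. Their deposited log2 changes ran from -0.61 to 1.06 with a median of 0.09, while the median over all genes was -0.01. Positive statistics were found for 38 members and negative ones for 23. That is 62.3% positive, beside 49.9% of all genes. At a mean of at least 10 TPM the shares were 60.4% of members and 51.1% of all genes. Of the 17 members averaging at least 100 TPM, 8 were positive and 9 negative (47.1% positive), beside 52.0% of all genes of that level. The precision differed widely within the list, with standard errors of the authors' test from 0.073 (Eef1a1) to 2.06 (Eef1a2). For 43 of 61 members the 95% interval lay inside a 2-fold change in either direction, and for 24 it lay inside 1.5-fold. Of members averaging at least 10 TPM the share inside 2-fold was 81.1%, beside 61.0% of all genes of that level.

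**Figure D1:**
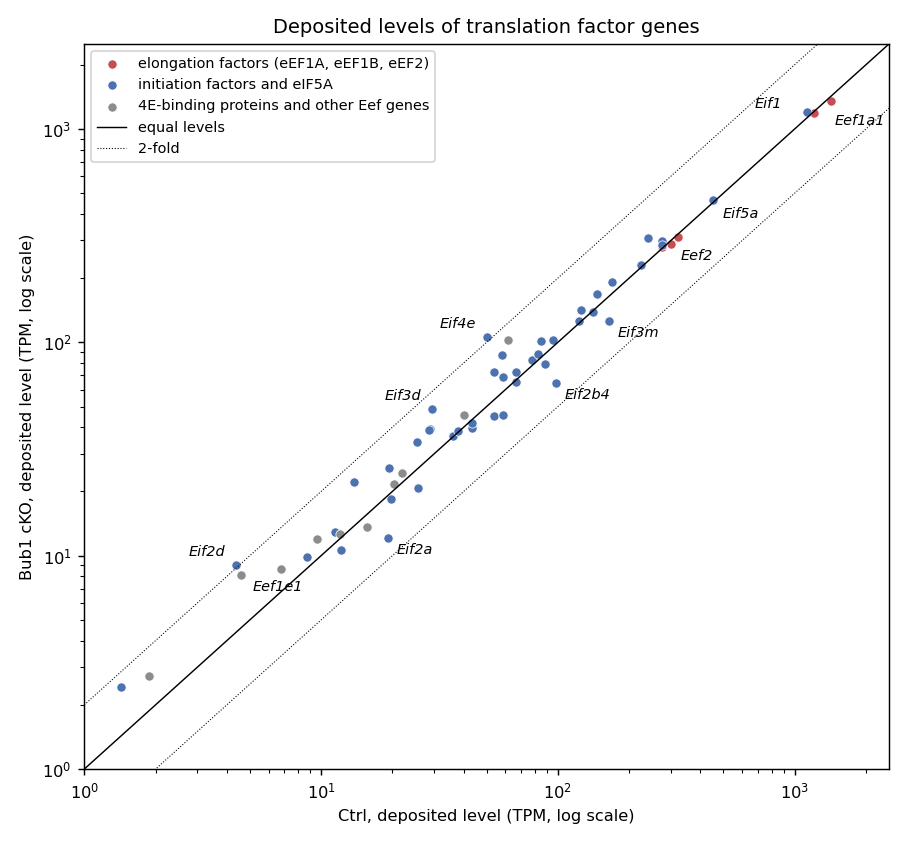
Deposited level of each translation factor gene with a mean of at least 1 TPM (59 genes) in Ctrl (x axis) and Bub1 cKO (y axis), both in TPM on log scales, with lines for equal levels and for a 2-fold difference. Elongation factors (red) sit on the line of equal levels at the top of the range, and Eif4e and Eif2d lie at or just beyond the 2-fold line.

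The elongation factors stood nearly level between the genotypes. Eef1a1 is the main eEF1A gene (chromosome 9, 78478449 to 78489151, minus strand, GRCm38). It had the highest deposited level of the list, 1428 TPM (Ctrl) and 1349 TPM (Bub1 cKO) per the authors' deposited table. Its own log2 change was -0.08 with a 95% interval from -0.22 to 0.07 (adjusted p = 0.985 per the authors' deposited table). Eef1a2, the eEF1A gene of muscle and neurons, was at 0.948 and 0.418 TPM per the authors' deposited table, and its interval ran from -5.19 to 2.90, so nothing can be read from it. The coding sequences of this pair are identical at 80.6% of aligned bases.

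The exchange factor eEF1B has 3 subunits, all measured. Eef1b2 was at 1212 and 1181 TPM, Eef1d at 321 and 312 TPM and Eef1g at 275 and 281 TPM (Ctrl and Bub1 cKO, per the authors' deposited table). The translocase gene Eef2 was at 301 and 288 TPM, with an interval from -0.23 to 0.14. For these 5 genes, Eef1a1 and Eef2 included, each interval excluded a 1.5-fold change in either direction, and their summed level was 3536 TPM (Ctrl) and 3411 TPM (Bub1 cKO). Eef1d shares 277 bases on its strand with Naprt (4.48 and 0.074 TPM per the authors' deposited table, adjusted p = 0.985), so a few reads could belong to either. Longer overlaps on the same strand were those of Eif4e3 with Gm20696 (41637 bases) and of Eef1akmt4 with Ece2 (7402 bases). Gm20696 was at 3.94 and 5.94 TPM and Ece2 at 0 and 0.063 TPM.

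All 5 of these genes are on a list of 5′ TOP mRNAs drawn from general knowledge, together with Eif3e, Eif3f, Eif3h and Eif4b. Of the 9, 8 had a negative statistic and none an unadjusted p under 0.05, with deposited log2 changes from -0.25 (Eif3f) to 0.03 (Eef1g) and a median of -0.06. The 44 other members with a mean of at least 10 TPM had a median of 0.11, with 31 positive and 13 negative statistics, and all genes of that level a median of 0.01. In TPM the 9 genes summed to 3862 in Ctrl and 3713 in Bub1 cKO. This difference between both sets of members was not tested, and the 95% interval of each of the 9 genes includes 0.

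**Figure D2:**
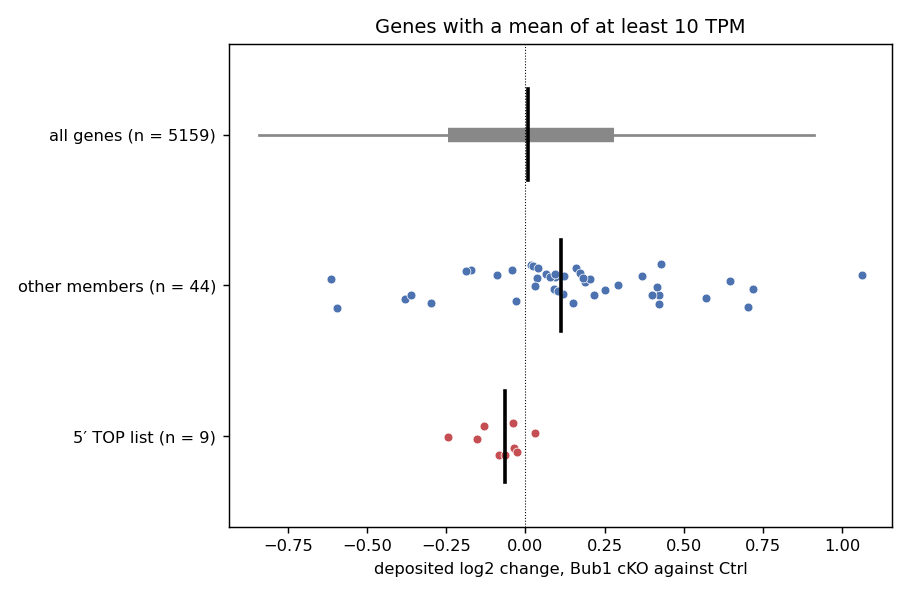
Deposited log2 change (x axis) of the 9 members on the 5′ TOP list, of the 44 other members and of all 5159 genes, all with a mean of at least 10 TPM. Points are genes (spread vertically for display only), black bars medians (-0.06, 0.11 and 0.01), the grey box the range between the quartiles of all genes (-0.25 to 0.28) and the grey line their 5th to 95th percentile (-0.84 to 0.91); the 5′ TOP members are narrowly spread, with 1 of 9 above 0.

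The annotated transcription starts are shown because the tract, where present, lies at the first bases of the mRNA. Whether the mRNAs of these cells begin at the annotated starts was not tested. A marked run may thus lie outside the mRNA, and a window without one does not show that the tract is absent. RefSeq start windows (GRCm38.p6) were found for 47 members, 5 of them on the 5′ TOP list. Below, each window runs from 25 bases before the start to 25 bases from it on, 5′ to 3′ on the gene's strand, and capitals mark a run of at least 8 pyrimidines (C or T) that begins with C, searched on the gene's strand from 10 bases before the start to 25 after it. The first 5 are the 5′ TOP members with a window, and the last 2 are initiation factors outside that list with a long run.
Eef1a1 (chr9:78481700-78481749, minus): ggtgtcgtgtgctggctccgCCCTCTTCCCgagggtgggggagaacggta
Eif3f (chr7:108934390-108934439, plus): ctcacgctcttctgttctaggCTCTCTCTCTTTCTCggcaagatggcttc
Eef2 (chr10:81176606-81176655, plus): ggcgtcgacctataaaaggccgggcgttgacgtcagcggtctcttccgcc
Eef1b2 (chr1:63176806-63176855, plus): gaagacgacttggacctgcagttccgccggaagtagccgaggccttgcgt
Eif4b (chr15:102073748-102073797, plus): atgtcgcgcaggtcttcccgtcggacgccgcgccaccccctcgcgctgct
Eif2s3x (chrX:94212627-94212676, minus): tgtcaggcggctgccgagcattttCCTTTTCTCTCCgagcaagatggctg
Eif2b5 (chr16:20498792-20498841, plus): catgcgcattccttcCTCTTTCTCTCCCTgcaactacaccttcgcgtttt
A run of 15 pyrimidines lies at the RefSeq start of Eif3f and one of 10 at that of Eef1a1. The windows of Eef2, Eef1b2 and Eif4b hold none of at least 8 that begins with C. Near its end the Eef2 window does hold 8 pyrimidines in a row, tctcttcc, which begin with T and so were not counted. Eif2s3x, whose run has 12 pyrimidines from its first C, and Eif2b5, whose run has 14 inside the searched stretch, had positive deposited log2 changes of 0.16 and 0.43 per the authors' deposited table. Such a run was present in 10 of the 47 members (21.3%), beside 13.1% of symbols with a mean of at least 10 TPM and 11.6% of all symbols in the RefSeq table. At a mean of at least 10 TPM, the median deposited log2 change was 0.09 for the 9 members with such a run at a RefSeq start. It was 0.08 for the 30 without, Eef2 counted among them, and this difference was not tested.

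Among initiation factors, the eIF2 group held both the lower member and one of the higher ones at an unadjusted p under 0.05. Eif2s1 encodes the alpha subunit, the target of the stress kinases (chromosome 12, 78861819 to 78887010, plus strand). It was at 19.3 TPM (Ctrl) and 25.7 TPM (Bub1 cKO) per the authors' deposited table, with an own log2 change of 0.45 (interval 0.03 to 0.87, unadjusted p = 0.034, adjusted p = 0.960 per the authors' deposited table). The beta subunit gene Eif2s2 was at 274 and 298 TPM and the X-linked gamma subunit gene Eif2s3x at 11.4 and 12.9 TPM per the authors' deposited table. These 3 member genes thus had a higher level in Bub1 cKO, with 305 and 337 TPM in sum, and none passed. The sum leaves out the Y-linked gamma subunit gene Eif2s3y, which was not a member. Eif2s3y was at 18.956 TPM (Ctrl) and 15.655 TPM (Bub1 cKO) per the authors' deposited table, above Eif2s3x in both genotypes. Its statistic was negative (-0.238), so a higher level of the gamma subunit as a whole cannot be read from Eif2s3x.

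Eif2a should not be confused with Eif2s1: it encodes eIF2A, a separate protein that can bring initiator tRNA without eIF2 (chromosome 3, 58525821 to 58557501, plus strand). Its level was 19.1 TPM (Ctrl) and 12.2 TPM (Bub1 cKO) per the authors' deposited table, an own log2 change of -0.78 with an interval from -1.47 to -0.09 (unadjusted p = 0.027, adjusted p = 0.910 per the authors' deposited table). Eif2d, another factor that can place tRNA without eIF2, went the other way, with 4.37 and 9.02 TPM per the authors' deposited table. Its interval, from -0.33 to 1.84, covers no change.

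The exchange factor eIF2B, which recharges eIF2 with GTP, has 5 subunits, and 4 of 5 had positive statistics with no unadjusted p under 0.05. Eif2b5, the catalytic epsilon subunit, was at 28.6 and 38.9 TPM per the authors' deposited table, with an interval from -0.32 to 1.07. The gamma subunit Eif2b3 was alike, at 29.0 and 39.1 TPM per the authors' deposited table (unadjusted p = 0.099). For the delta subunit Eif2b4 the deposited level was lower in Bub1 cKO, 97.8 and 64.5 TPM, but the statistic per the authors' deposited table was positive (0.42). Eif2b2, the beta subunit, also had opposite signs, with 77.5 and 82.7 TPM and a statistic of -0.02 per the authors' deposited table.

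Of the factors that select the start codon, Eif1 had the highest deposited level. It was at 1129 and 1203 TPM per the authors' deposited table, with an interval from -0.16 to 0.39. The autosomal eIF1A gene Eif1a was at 13.8 and 22.2 TPM per the authors' deposited table. Its own log2 change was 0.54, its interval just above 0 (0.0049 to 1.08), and its unadjusted and adjusted p were 0.048 and 0.985 per the authors' deposited table. Its X-linked copy Eif1ax was at 36.0 and 36.4 TPM with a negative statistic (-0.42) per the authors' deposited table. The coding sequences of both copies are identical at 85.6% of bases, and together they stood at 49.8 TPM (Ctrl) and 58.6 TPM (Bub1 cKO). Eif1ad, whose protein has an eIF1A-like domain, was at 19.7 and 18.4 TPM, and Eif5b, the GTPase of subunit joining, at 66.7 and 65.4 TPM with a positive statistic (0.70) per the authors' deposited table.

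The scaffold complex eIF3 contributed the largest set, 14 genes. Positive statistics were found for 9 and negative ones for 5, and 3 members were higher at an unadjusted p under 0.05. Eif3d, the subunit that can itself bind the cap of some mRNAs (chromosome 15, 77958998 to 77970813, minus strand), was at 29.5 TPM (Ctrl) and 48.6 TPM (Bub1 cKO) per the authors' deposited table. Its own log2 change of 0.72 had an interval from 0.15 to 1.29 (unadjusted p = 0.014, adjusted p = 0.767 per the authors' deposited table). Eif3a, the largest core subunit (chromosome 19, 60761117 to 60790658, minus strand), was at 125 and 142 TPM per the authors' deposited table. Here the change was small and precise: the own log2 change was 0.20, with an interval from 0.01 to 0.38 (unadjusted p = 0.035, adjusted p = 0.968 per the authors' deposited table).

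Subunit j is encoded by Eif3j1 and Eif3j2, whose coding sequences are identical at all 783 aligned bases. Reads from these bases could belong to either gene. The 3′ ends, where the kit reads, were not compared, so how certain the split of reads is remains unknown. The authors' deposited table puts nearly all of the signal on Eif3j2 (54.0 and 72.6 TPM, unadjusted p = 0.030, adjusted p = 0.921) and little on Eif3j1 (1.43 and 2.44 TPM). Summed over both, the level was 55.4 TPM (Ctrl) and 75.0 TPM (Bub1 cKO). The sum was not tested.

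Other subunits showed no common direction. The lowest deposited log2 change was that of Eif3m, -0.38, with 164 and 126 TPM per the authors' deposited table (interval -1.07 to 0.03, unadjusted p = 0.065). Eif3k had the highest deposited level, 225 and 231 TPM per the authors' deposited table. The core subunit Eif3c was at 170 and 191 TPM, yet its statistic was -0.04 per the authors' deposited table. The 3 subunits on the 5′ TOP list (Eif3e, Eif3f and Eif3h) all had negative statistics, and of the other 11 genes 9 had positive ones, with Eif3m and Eif3c as exceptions.

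**Figure D3:**
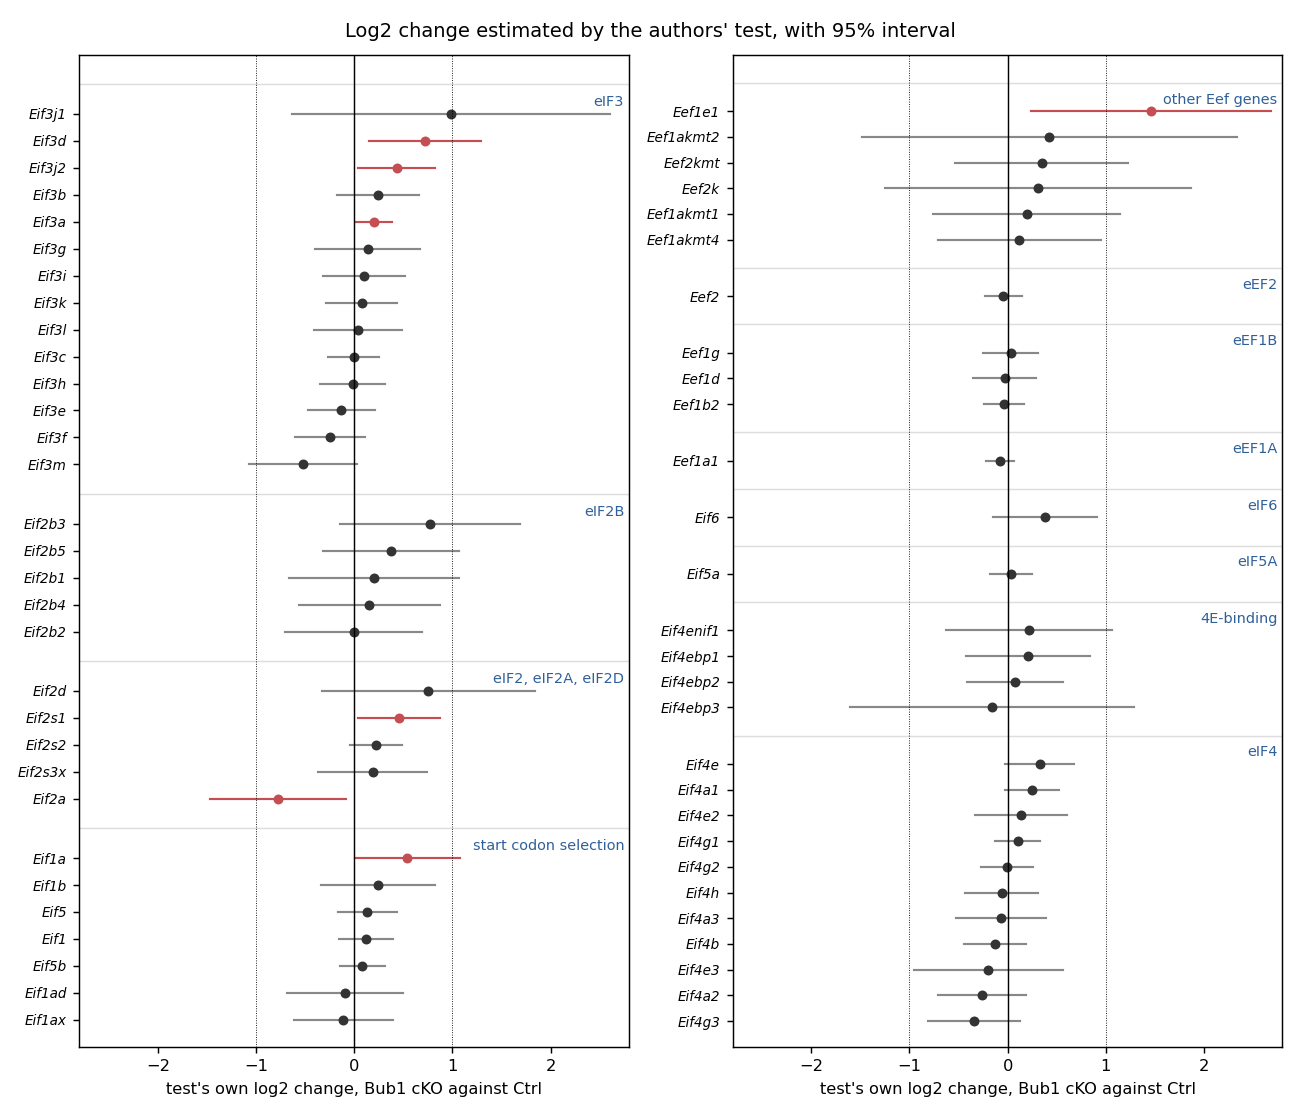
The log2 change estimated by the authors' test (points; x axis, Bub1 cKO against Ctrl) with its 95% interval (bars) for the 59 members with a mean of at least 1 TPM, grouped by role; dotted lines mark a 2-fold change. The 7 genes with an unadjusted p under 0.05 are red, 6 to the right of 0 and Eif2a to the left, and intervals are narrowest for Eef1a1, Eif3a and Eef2.

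In the cap-binding group eIF4, no gene of 11 had an unadjusted p under 0.05, with 4 positive and 7 negative statistics. Eif4e, the cap-binding protein itself (chromosome 3, 138526179 to 138559696, plus strand), had the largest deposited log2 change of all members, 1.06, with 50.1 TPM (Ctrl) and 106 TPM (Bub1 cKO) per the authors' deposited table. The test's own log2 change was only 0.33, with an interval from -0.03 to 0.68 that excludes a doubling (unadjusted p = 0.069, adjusted p = 0.985 per the authors' deposited table). Its relative Eif4e2, a cap-binding repressor, was at 58.2 and 87.0 TPM per the authors' deposited table, and its own log2 change was 0.14 beside a deposited one of 0.57. Of the scaffold genes, Eif4g1 and Eif4g2 stood close to equality. Eif4g1 was at 95.7 and 102 TPM per the authors' deposited table. Eif4g2, which lacks the eIF4E-binding part, was at 123 and 126 TPM with a statistic of -0.05 per the authors' deposited table. Eif4g3 was at 25.6 TPM (Ctrl) and 20.7 TPM (Bub1 cKO) per the authors' deposited table. Its own log2 change was -0.34, with an interval from -0.81 to 0.12.

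The 3 eIF4A genes are DEAD-box RNA helicases: Eif4a1 and Eif4a2 act in initiation, while Eif4a3 belongs to the exon junction complex. Their kinship is plain in the stretch that gives the family its name. It is printed from GENCODE M21 transcripts (GRCm38), with the codons of the DEAD box in capitals.
Eif4a1 (chr11:69668689-69668748, minus, exon 6 of 11): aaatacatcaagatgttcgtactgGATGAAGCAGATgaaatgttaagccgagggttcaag
Eif4a2 (chr16:23110239-23110298, plus, exon 6 of 11): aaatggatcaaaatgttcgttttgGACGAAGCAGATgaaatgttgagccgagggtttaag
Eif4a3 (chr11:119294026-119294376, minus, exons 6 and 7 of 12, spliced): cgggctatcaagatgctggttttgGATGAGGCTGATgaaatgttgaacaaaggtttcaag
Of these 60 bases, Eif4a2 shares 52 and Eif4a3 43 with Eif4a1, and over the whole coding sequence 78.6% and 69.4% of aligned bases. Eif4a1 was at 146 TPM (Ctrl) and 168 TPM (Bub1 cKO) per the authors' deposited table (own log2 change 0.25, interval -0.02 to 0.52). Eif4a2 was at 58.7 and 45.5 TPM (own log2 change -0.26, interval -0.70 to 0.19), and Eif4a3 at 274 and 287 TPM with a statistic of -0.28 per the authors' deposited table. Eif4a1 and Eif4a2 have opposite signs, but both intervals include 0 and the difference between the genes was not tested. Summed, this pair was at 205 and 214 TPM.

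The proteins that hold eIF4E back were likewise within error. Eif4ebp1, Eif4ebp2 and Eif4ebp3, the repressors that mTORC1 switches off, summed to 67.7 TPM (Ctrl) and 71.9 TPM (Bub1 cKO). Eif4ebp3 had the lowest change of them, with 15.7 and 13.7 TPM per the authors' deposited table. Eif4enif1, a transporter that carries eIF4E into the nucleus, was at 61.6 and 102 TPM per the authors' deposited table, a deposited log2 change of 0.72. The test's own value was 0.22, with an interval from -0.63 to 1.06.

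Eif5a, whose protein carries the hypusine residue and helps the ribosome through difficult sequences, was at 453 and 463 TPM per the authors' deposited table, and its interval from -0.18 to 0.25 excludes a 1.5-fold change. Eif5a2 was at 0.465 and 0.111 TPM per the authors' deposited table, too low to read. Eif6, which keeps free large subunits from joining too early, was at 240 and 310 TPM per the authors' deposited table, with an interval from -0.15 to 0.91.

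The other 6 Eef genes, 5 for enzymes that modify elongation factors and Eef1e1, stood below the well-expressed elongation factors, and all 6 had positive statistics. Eef1e1 encodes no such enzyme but a protein of the tRNA synthetase complex (chromosome 13, 38644207 to 38659058, minus strand). It was at 4.61 TPM (Ctrl) and 8.13 TPM (Bub1 cKO) per the authors' deposited table. The test's own log2 change was 1.46, above the deposited 0.70, with a wide interval from 0.24 to 2.68 (unadjusted p = 0.019, adjusted p = 0.857 per the authors' deposited table). Eef1akmt1, a methyltransferase of eEF1A and the highest of the group, was at 21.9 and 24.4 TPM per the authors' deposited table. The standard errors of the 6 genes had a median of 0.55, beside 0.10 for the 5 well-expressed elongation factors.

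For some members the deposited levels and the test gave different changes. At a mean of at least 10 TPM, both log2 changes lay more than 1 standard error apart in 5 of 53 members (9.43%), beside 15.5% of all genes of that level. Eif4e was the extreme member, 4.12 standard errors apart, followed by Eif2b4 with 2.03, Eif4e2 with 1.82, Eif3c with 1.33 and Eif4enif1 with 1.16. The signs were opposite in 7 of the 53 members, beside 724 of all 5159 genes of that level. These members were Eif1ax, Eif2b2, Eif2b4, Eif3c, Eif4a3, Eif4g2 and Eif5b. Over all genes of that level, the share more than 1 standard error apart was 5.83% for genes with 1 to 3 annotated transcripts (GENCODE M21), 15.8% with 4 to 7 and 23.2% with 8 or more. Eif4e has 6 annotated transcripts, Eif2b4 12, Eif4e2 8, Eif3c 3 and Eif4enif1 13. The part of transcript number in these gaps was not tested.

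**Figure D4:**
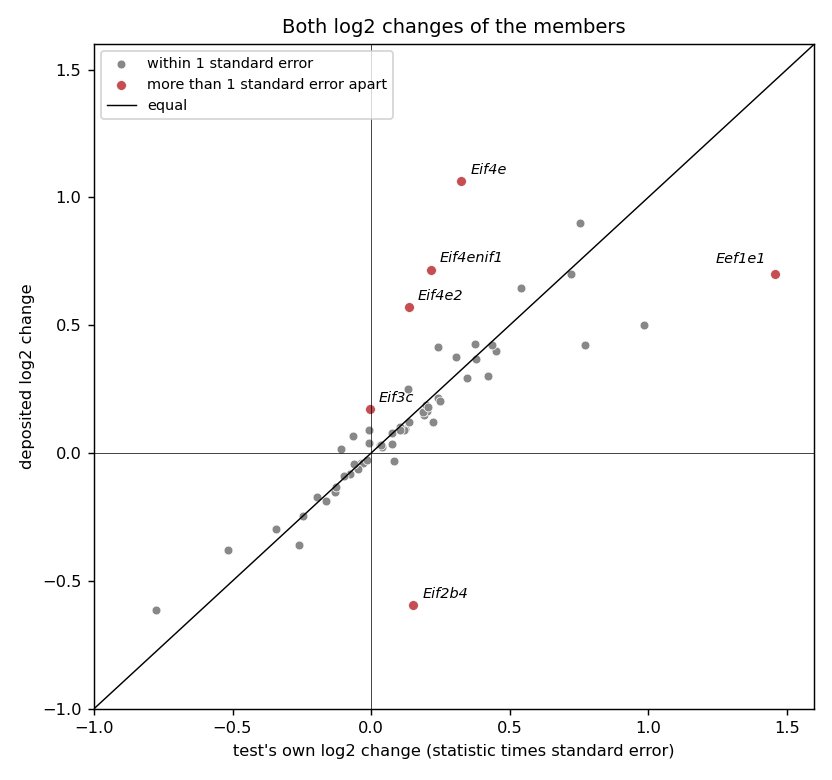
Deposited log2 change (y axis) against the test's own log2 change (x axis) for the 59 members with a mean of at least 1 TPM, with a line of equality. Labelled red points are the 6 genes whose changes differ by more than 1 standard error; Eif4e lies farthest above the line for its error, Eif2b4 has opposite signs, and Eef1e1 lies below the line.

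No gene around the translation factors passed either. Of 58 further translation genes listed, 56 were found, 33 with positive and 23 with negative statistics, and 0 passed the authors' adjusted p. At an unadjusted p under 0.05 there was 1, Mtrf1l, a release factor of mitochondrial ribosomes, at 9.89 TPM (Ctrl) and 4.57 TPM (Bub1 cKO) per the authors' deposited table (p = 0.038, adjusted p = 0.983). That is 1.79% of the 56 genes, beside 4.81% of all genes. The 56 genes had a median level of 12.2 TPM, and of all genes averaging at least 10 TPM the share was 8.3%.

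By role, the medians of the deposited and of the test's own log2 change are given side by side, since in some lists they differed in size. The 9 genes found around eIF2 kinases and the eIF2 phosphatase had 3 positive and 6 negative statistics, with medians of -0.09 (deposited) and -0.14 (own). The 15 genes of mTORC1 and eIF4E control had 11 positive and 4 negative ones, with medians of 0.31 (deposited) and 0.16 (own). The poly(A)-binding proteins and their partners had 1 positive and 4 negative ones (-0.19 deposited, -0.25 own). The other initiation, termination and recycling factors had 8 and 2 (0.28 deposited, 0.21 own). The enzymes that modify eIF5A and eEF2, with the selenocysteine elongation factor, had 6 and 2 (0.15 deposited, 0.20 own). The mitochondrial translation factors had 4 and 5, and their deposited median of -0.18 stood beside an own median of -0.04. Over all genes the medians were -0.01 (deposited) and -0.0015 (own).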

How the data were processed

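RNA was measured in 6 libraries, 3 per genotype. All values come from 1 table deposited by the authors, which was made with the web service RaNA-seq, per the file headers. The aligner, the build, the annotation and the kind of test are not given in the sources. The levels deposited by the authors carry no unit and were taken as TPM from their sums (999891 in Ctrl, 999954 in Bub1 cKO), and CPM columns would sum alike. At 50 to 200 TPM the median standard error was 0.31 for the 400 genes with the shortest transcripts, 0.23 for the next 401 and 0.21 for the 400 with the longest. Recomputed from these levels with a pseudocount of 1, the deposited log2 change agreed within 0.002 in 15982 genes. The authors' standard error and statistic were read as scores of their test, and the p-value columns as their unadjusted and adjusted p. Depth is unknown, so the standard error stands for precision.

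The planned fit per library could not be made, and calls rest on the authors' adjusted p (threshold 0.05). Intervals are the own log2 change with normal 95% limits. Benjamini-Hochberg adjustment was tested on simulated data over all rows of the table, not over subsets of it. Members, gene lists and roles were chosen with earlier results of these data known. Named are all elongation factors, in every other role the highest member and the largest change each way (mean of at least 5 TPM), every member with an unadjusted p under 0.05 or opposite signs (mean of at least 5 TPM), and up to 3 genes per further list by p. Eif2b3, Eif4g1, Eif4g3, Eif4a1, Eif4e2, Eif3j1, Eif2s3x, Eif5a2, Eif4ebp1, Eif4ebp2 and the non-member Eif2s3y were added after their values were seen. Eif3e, Eif3f, Eif3h and Eif4b were added as members of the 5′ TOP list, and Eif4e3 and Eef1akmt4 for their overlaps with other genes. Gene positions come from GENCODE M21 (GRCm38) by gene ID (14614 of 15982 IDs with the same version), start windows from RefSeq by symbol. Coding sequences were aligned with Biopython 1.88. Python 3.11.15, pandas 2.3.3 and scipy 1.17.1 were used. Alternatives were other thresholds, filters, pseudocounts, a scaling and the other log2 change.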

Additional observations from a re-analysis of the deposited data

How the results depend on the processing

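Without values per library, leaving out a replicate could not be run. No paired analysis was possible because the table holds 1 value per genotype. Of 82 alternatives, 79 stayed within 1.5 times the count or within the authors' median standard error. For members with a mean of at least 1 TPM that error was 0.239, wide beside their median log2 change of 0.094. The count of 79 therefore says little about robustness. The alternative that summed all rows of a symbol was the same by design, since no member's symbol was repeated. The count of all genes called, 29, became 44 at an adjusted p under 0.1 and 769 at an unadjusted p under 0.05, and 37 or 38 when p was adjusted again over genes with a mean of at least 1 or 5 TPM. The count of translation factor genes called was 0 at adjusted p under 0.05 or 0.1 and after either new adjustment, and 7 at an unadjusted p under 0.05. Their median log2 change stayed between 0.09 and 0.12 over pseudocounts of 0.1 and 5, both filters, the scaling and the test's own log2 change. Of 12 role groups 1 had a median of another sign in one of these settings: eIF4, at 0.04 with the deposited log2 change and -0.06 with the test's own. The 5′ TOP median stayed between -0.07 and -0.05. The summed level of the members was 3.39% higher in Bub1 cKO, 5.16% without Eef1a1, and 3.41% when scaled without globin genes, an alternative chosen after seeing the data.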
